A study of Gallus gallus with 12 samples.

Results

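The transcript landscape described here is that of breast muscle (Pectoralis major) from chickens fed the normal diet, as read on the 4 arrays titled Treatment A (PC). These are 4 of the 12 arrays of the series. The study fed Ross PM3 chickens, a commercial broiler cross, 1 of 3 diets: normal, low in phosphorus (P) and calcium (Ca), or low in both with added phytase, an enzyme that frees phosphate from plant phytate. Each diet has 4 arrays of muscle taken at day 36, and each array holds the pooled RNA of 4 birds. For 1 normal-diet array (pool 1) the labels list no diet among the characteristics, and its title and source give the group. No diets are compared below. The other 8 arrays serve only to show which features of the normal-diet ranking recur in arrays that the ranking did not use.

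Of the 20804 transcript clusters (sets of probes, each with 1 value per array), 12300 carried a single gene symbol. They stood for 11528 genes, each taken at its brightest cluster and ranked by the mean log2 level over the 4 pools. Levels are log2 signals after GCRMA. Clusters bind their targets with unequal strength, so the order is one of signal and not of transcript number. The value after ± is the SD over the 4 pools. It measures the spread between pools, each already an average of 4 birds, and how birds were allotted to pools is not stated in the labels. One group was described, so no test was made, and the number of arrays limits the precision.

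Chicken breast muscle is a white muscle built almost wholly of fast glycolytic fibres, which power short bursts of flight. In each fibre, myosin pulls on actin filaments whose availability is set by the calcium-sensing troponin complex and tropomyosin. Glycolysis and the phosphagen store supply most of the ATP for such bursts, and ribosomes are abundant in a growing muscle.

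Array medians over all 20804 clusters were at most 3.16. Pearson's r between pairs of arrays was 0.980 to 0.988 over the 11528 genes, which are not independent of each other. Levels ran from 13.60 for the brightest gene to 1.35 for the dimmest, with a median of 3.54. The lower quartile was 2.41 and the upper quartile 4.99. On the linear scale the 10 highest genes carried 13.1% of the summed signal of all ranked genes and the 100 highest carried 34.3%. By pool that second share ranged only from 34.1 to 34.3%. The lowest 25% of genes carried 2.11%.

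**Figure D1:**
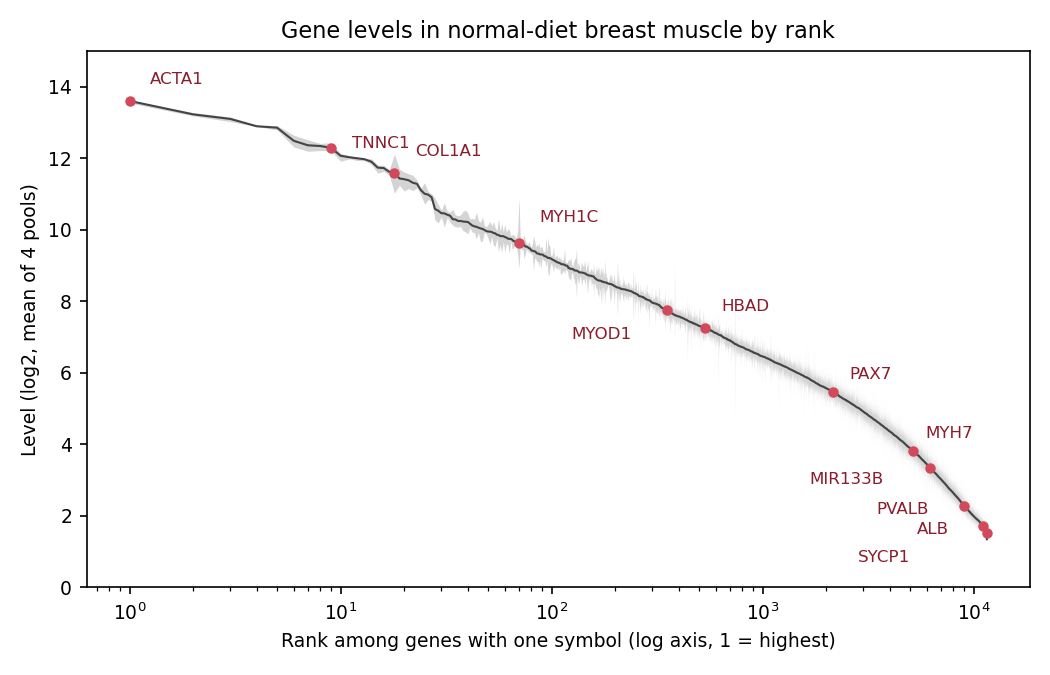
Mean log2 level of each of the 11528 ranked genes (line) and the range over the 4 pools (grey band) against rank on a log axis, with 12 genes marked. Levels fall from 13.60 (ACTA1) to 1.35, and the band widens at single genes such as COL1A1 and MYH1C.

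Fast contractile proteins and glycolytic enzymes were prominent at the top of the ranking, with mitochondrially encoded transcripts among them. Of the 40 highest genes, 8 were on the fast contractile list and 7 on the list of glycolysis, glycogen and phosphagen enzymes. The ranking covers only clusters with a single symbol, and 6 clusters outside it were brighter than that of ACTA1. ACTA1, skeletal muscle alpha-actin, stood first at 13.60 ± 0.04, with 13.54, 13.61, 13.61 and 13.63 in pools 1 to 4. GAPDH, the glyceraldehyde-phosphate dehydrogenase of glycolysis, was second at 13.22 ± 0.04, with 13.18, 13.27, 13.21 and 13.23. Every pool of ACTA1 lay above every pool of GAPDH. Next came ND4L (13.10 ± 0.06) and COX3 (12.89 ± 0.02), which the mitochondrial genome encodes as subunits of respiratory complexes I and IV. With the mean of a gene's clusters in place of the brightest, ND4L stood at 7.27 and COX3 at 9.66, so their place rests on that choice. With the median cluster ND4L stood at 6.20 and COX3 at 11.59, so COX3 moved less under that setting. LDHA, the muscle lactate dehydrogenase subunit, followed at 12.85 ± 0.05. The 3 genes used as fast skeletal muscle markers, ACTA1, TNNC2 and MYH1E, held ranks 1, 6 and 7. The slow or cardiac marker TNNC1 held rank 9. ACTA1 is an actin of skeletal muscle in general, so its rank does not speak to fibre type. The markers were chosen with earlier results of these data known, so their ranks are no check of the tissue label.

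TNNC2, the fast troponin C that binds calcium, measured 12.31, 12.48, 12.50 and 12.64 (12.48 ± 0.14). MYH1E, an adult fast myosin heavy chain, measured 12.19, 12.31, 12.42 and 12.51 (12.36 ± 0.14). In both genes pool 1 was the lowest and pool 4 the highest. Neighbours this close were not separated by the spread: in 32 of the 39 neighbouring pairs among the 40 highest genes, the ranges over pools overlapped. The fast contractile list also held tropomyosin TPM1 (12.02 ± 0.04), the inhibitory troponin TNNI2 (11.99 ± 0.04) and troponin T TNNT3 (11.90 ± 0.08). The Z-disc proteins ACTN2 (11.41 ± 0.23) and MYOZ1 (11.28 ± 0.12) were listed with them. Of the 14 fast contractile genes found among 19 listed, 12 stood in the top 10% of all genes, with a median level of 11.35 against 3.54 for all genes. Members such as ACTA1 and ACTN2 are not particular to fast fibres, so these figures do not measure fast fibres alone. Genes of a list not found under a single symbol were not analysed here, so counts and medians of every list cover only the genes found.

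**Figure D2:**
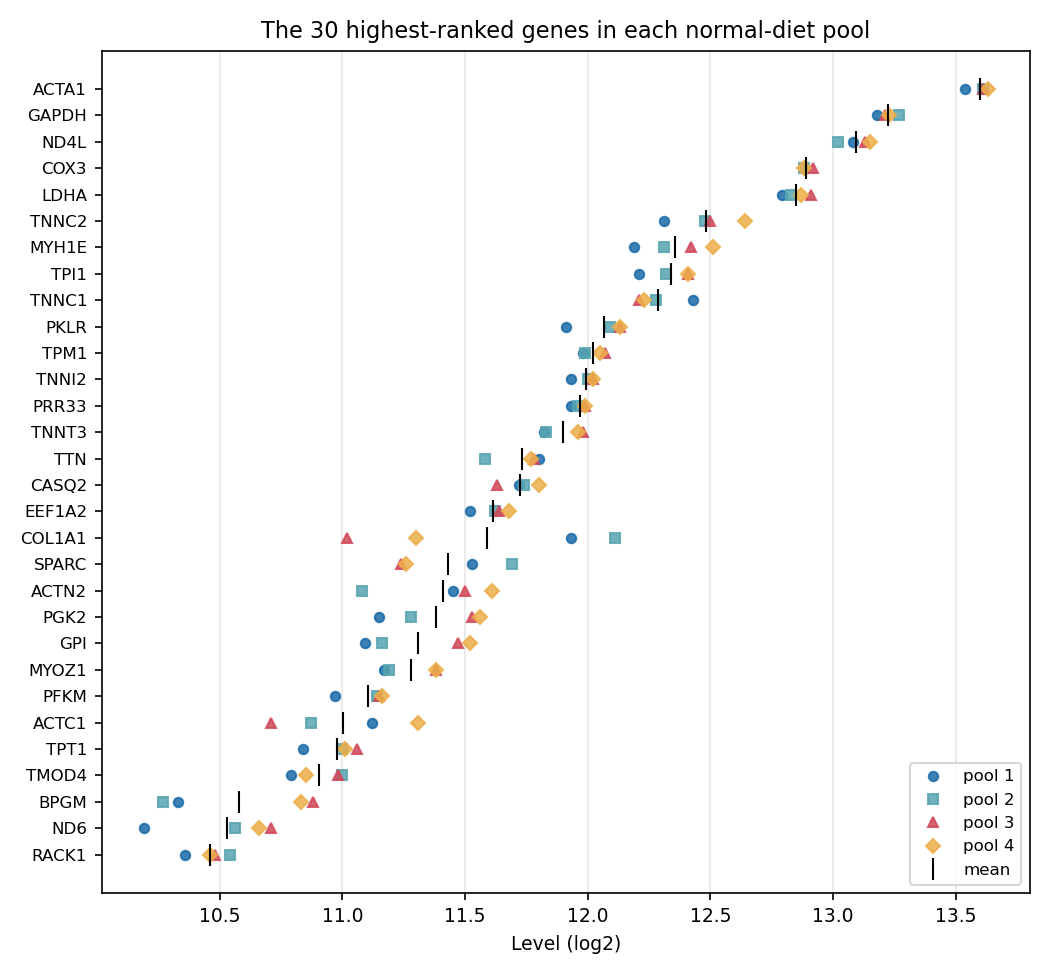
Log2 level in each of the 4 pools for the highest-ranked genes, brightest at the top, coloured by pool. Most pools lie close together, as for ACTA1 (13.54 to 13.63), while COL1A1 spans 11.02 to 12.11.

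The fast myosin heavy chains came from a cluster of near-identical neighbouring genes, so their probes may share signal and the split between them is uncertain. Below MYH1E stood MYH1A at 9.84, 10.26, 9.74 and 10.48 in pools 1 to 4 (10.08 ± 0.35, rank 44). MYH1C measured 9.62, 9.13, 8.91 and 10.90 (9.64 ± 0.89, rank 70). MYH1D measured 8.15, 7.90, 6.33 and 7.47 (7.46 ± 0.81, rank 439). The pools did not order these genes alike: pool 4 was highest for MYH1E, MYH1A and MYH1C, and pool 1 for MYH1D. MYH1G (6.25 ± 0.99) and MYH1B (5.33 ± 0.64) were lower still, and pool 3 was the lowest pool in both, at 4.79 and 4.57.

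Slow, cardiac and embryonic contractile genes lay lower as a list, although TNNC1 and ACTC1, cardiac alpha-actin (rank 25), stood among the 40 highest genes. TNNC1, the troponin C of slow and cardiac muscle, ranked 9 at 12.43, 12.28, 12.21 and 12.23 (12.29 ± 0.10). Pool 1 was its highest pool and the lowest for TNNC2, so TNNC2 had the higher value in 3 of 4 pools. The other 9 genes of the list stood outside the 100 highest. MYBPC1, slow myosin-binding protein C, measured 7.34, 8.01, 7.36 and 8.21 (7.73 ± 0.45). TNNI1, slow troponin I, reached 5.15 ± 0.39, and MYH7, listed with the synonym AMHC1 for an atrial myosin heavy chain, 3.82 ± 0.27. The myosin light chains MYL2 (2.79 ± 0.07) and MYL3 (1.78), which serve slow and cardiac fibres, were near the floor. Of 11 genes found among 19 listed, 3 were in the top 10% and the median was 5.15.

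Of 20 listed pairs of a fast and a slow, or of a muscle and another, isoform, 7 had both partners ranked. In 6 of them the muscle or fast form had the higher signal in 4 of 4 pools. ACTA1 lay above ACTC1, whose near-identical coding sequence makes its level uncertain. ACTC1 measured 11.12, 10.87, 10.71 and 11.31 in pools 1 to 4. LDHB, the heart-type subunit below LDHA, measured 6.16, 6.28, 5.52 and 6.04. The muscle phosphofructokinase PFKM stood at 11.11 and the liver form PFKL at 4.30. The other pairs in that direction were TNNI2 and TNNI1, MYOZ1 and MYOZ2, and MYH1E and MYH7.

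Scaffold and assembly proteins of the sarcomere formed the next layer. Of the 23 genes found among 36 listed, 17 were in the top 10%, with a median of 8.52. TTN, the giant spring protein titin, led them at 11.73 ± 0.10. TMOD4, which caps actin filaments, reached 10.91 ± 0.10. ANKRD1, a titin-binding stress protein, and MYOM2, an M-band protein, both stood at 10.22. NEXN, an actin-binding Z-disc protein outside the list, was less even between pools, at 7.41 ± 0.68, with pool 3 the lowest at 6.53.

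Genes of excitation and calcium handling were lower and wider apart. Only 14 of 30 listed were found, of which 9 were in the top 10%, with a median of 7.47. CASQ2, annotated with the synonym CASQ1 and coding for the calcium store protein calsequestrin, led at 11.72 ± 0.07. TRDN, triadin, which links calsequestrin to the release channel, measured 9.49, 9.47, 8.08 and 8.38 (8.86 ± 0.73). RYR3, a release channel, stood at 8.80 ± 0.27 and the voltage sensor CACNA1S at 7.81. CHRND, a subunit of the acetylcholine receptor at the nerve contact, measured 7.95, 8.13, 7.08 and 7.55. TRDN and CHRND were both higher in pools 1 and 2 than in pools 3 and 4, as were 19.8% of all ranked genes. The list as a whole did not run that way. Its median departure of genes from their own 4-pool means was 0.029, −0.001, −0.045 and 0.014 in pools 1 to 4. PVALB, the calcium buffer parvalbumin, was an exception at the floor, 2.28 ± 0.10 and rank 9013.

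Enzymes of glycolysis, glycogen and the phosphagen store had a median of 8.84 over the 28 found among 47 listed. Of these 28, 18 were in the top 10% and 13 among the 100 highest genes. TPI1, triosephosphate isomerase, stood at 12.34 ± 0.10. PKLR, annotated with the pyruvate kinase synonyms PKM and PKM2 and not counted in the list, stood at 12.07 ± 0.11. GPI, glucose-6-phosphate isomerase, measured 11.09, 11.16, 11.47 and 11.52 (11.31 ± 0.22). BPGM, a bisphosphoglycerate mutase also outside the list, measured 10.33, 10.27, 10.88 and 10.83 (10.58 ± 0.32). Both enzymes were higher in pools 3 and 4 than in pools 1 and 2. CKMT2, the mitochondrial creatine kinase of muscle, measured 8.46, 8.65, 9.20 and 9.13 and ran the same way. GAPDH did not, and LDHB was lower in pools 3 and 4 than in pools 1 and 2. Neither the listed enzymes that were higher in pools 3 and 4 nor the share of all genes that were was counted. The list's median departure of genes from their own 4-pool means was smaller, at −0.06, −0.08, 0.05 and 0.10 in pools 1 to 4. The low end held the liver glycogen synthase GYS2 (2.15), ENO2 (2.31), PYGB (3.15) and the widely expressed glucose transporter SLC2A1 (3.95).

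Nuclear genes of oxidative phosphorylation stood lower than glycolysis by list median, at 6.97, with 35 of 49 in the top 10%. NDUFA4, a small subunit of the respiratory chain, led them at 10.29 ± 0.15. Pool 1 was the lowest pool for 37 of these 49 genes, against 26.2% of all genes. The list's median departure of its genes from their own 4-pool means was −0.20 in pool 1, −0.07 in pool 2, 0.07 in pool 3 and 0.13 in pool 4. This order of pools was not particular to the list. Mitochondrial ribosomal proteins, translation factors and fast contractile genes had it too, over a smaller span.

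The translation machinery was bright and even. Of 52 cytosolic ribosomal protein genes, 46 were in the top 10%, with a median of 8.49 and RPS2 highest at 10.42 ± 0.08. Mitochondrial ribosomal proteins had a median of 4.80, with 9 of 58 in the top 10% and 15 in the middle, between 40 and 60% of the order. EEF1A2, the elongation factor form of muscle and neurons, led translation factors at 11.62 ± 0.07. RPL3L, a paralogue of RPL3 found in striated muscle, stood at 9.23, and RPL3 itself at 7.51. Low members existed in lists with most genes in the top 10%, such as the ribosomal protein RPL26L1 at 2.29, the proteasome subunit PSMB7 at 1.89 and the respiratory subunit COX7A2 at 2.78. Proteasome genes had a median of 6.65, with 16 of 24 in the top 10%. Chaperones had 19 of 23 there, led by the small heat shock protein HSPB1 at 10.39 ± 0.12 and HSPA8 at 10.24 ± 0.17.

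**Figure D3:**
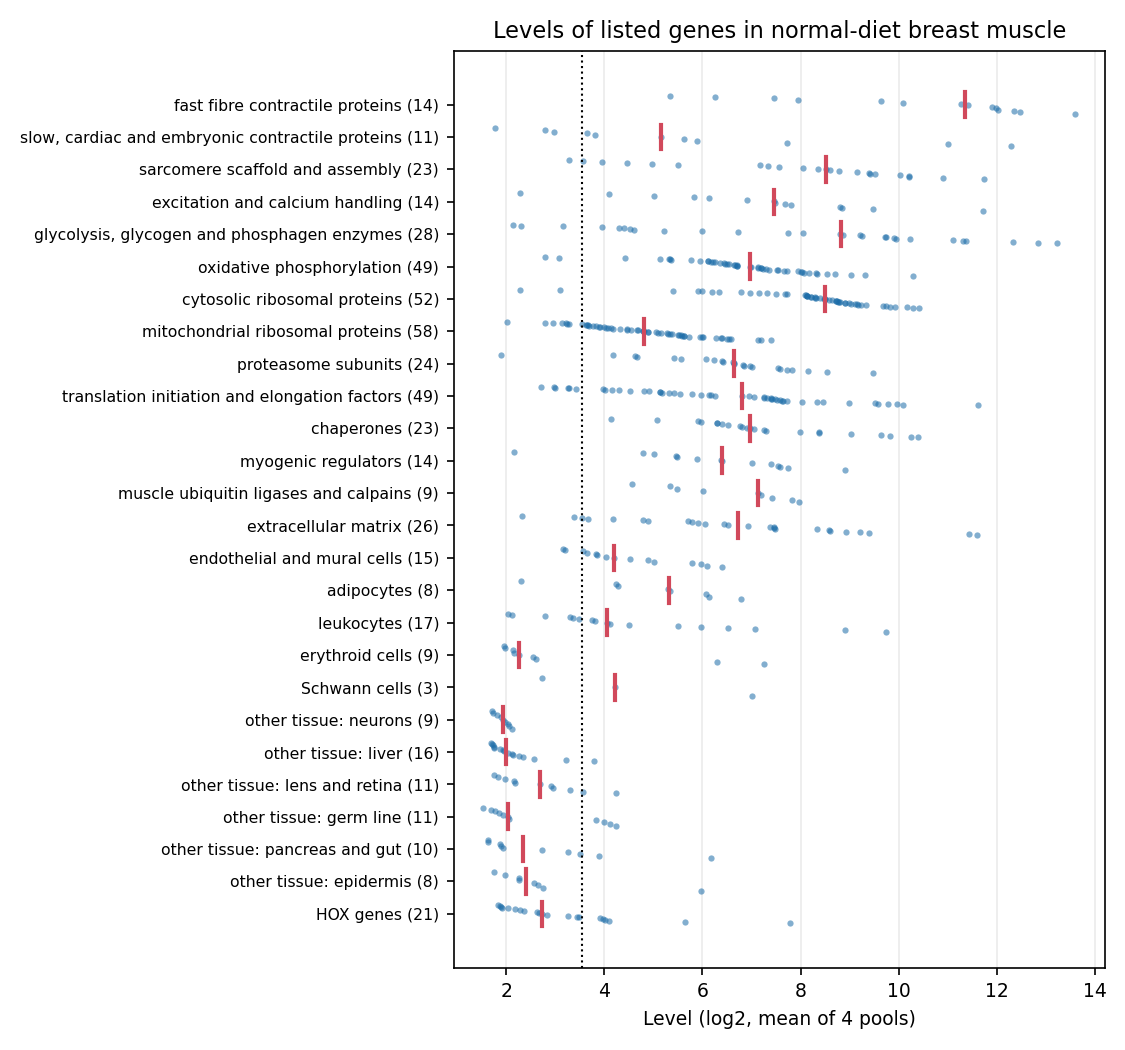
Log2 level (mean of 4 pools) of every gene found in each list, 1 point per gene, with the list medians. Fast contractile genes (median 11.35) lie at the top and genes of tissues other than muscle (median 2.05) at the floor.

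Regulators of muscle identity and growth stood in the upper part without reaching the top. MEF2C, a transcription factor of differentiated muscle, led them at 8.90. MYOD1, the determination factor, was even between pools at 7.77, 7.69, 7.77 and 7.75 (7.75 ± 0.04, rank 351). MSTN, myostatin, which restrains muscle growth, stood at 7.55, and MYF6 at 7.41. MYOG, active in fusing cells, was lower at 4.79, and PAX7, a marker of satellite cells, measured 5.80, 5.59, 5.16 and 5.31 (5.47 ± 0.29). PAX3, its embryonic relative, was near the floor at 2.16. Of 14 genes found, 8 were in the top 10%. Among breakdown genes the calpain CAPN3 stood at 7.98, the ubiquitin ligase TRIM63 at 7.20 and FBXO32 at 5.48.

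Genes of cells between the fibres were also represented, led by connective tissue. COL1A1, a chain of type I collagen, ranked 18 at 11.93, 12.11, 11.02 and 11.30 (11.59 ± 0.51). SPARC, a collagen-binding matrix protein, measured 11.53, 11.69, 11.24 and 11.26 (11.43 ± 0.22). COL1A2, the partner chain, measured 9.33, 9.77, 8.79 and 8.95 (9.21 ± 0.44). All 3 were higher in pools 1 and 2 than in pools 3 and 4, with no overlap, and FN1, fibronectin, ran the same way at 9.83, 9.72, 8.86 and 9.18. Across the list, 18 of 26 matrix genes had both pools 1 and 2 above both pools 3 and 4, against 19.8% of all genes. Pool 3 was lowest for 23 of 26, against 27.6% of all genes. In bulk tissue, fewer cells of a type and less RNA per cell cannot be told apart.

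Leukocyte genes showed the same low pool. CD74, the invariant chain of antigen-presenting cells, was highest in pool 1 and measured 9.95, 9.34 and 9.68 in pools 2, 3 and 4, while the general leukocyte marker PTPRC stood at 4.06, the T cell marker CD3E at 3.49 and CD4 at 2.12. Pool 3 was lowest for 12 of 17 genes of the list, against 27.6% of all genes. The list's median departure was 0.26, 0.19, −0.28 and −0.12 in pools 1 to 4. It was 0.13, 0.24, −0.27 and −0.11 for matrix genes and 0.14, −0.01, −0.29 and 0.10 for slow and cardiac contractile genes. The part of cell makeup in these differences was not tested.

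Markers of vessels, fat, blood and nerve sheath were spread over the order. Vessel genes were in the upper 50% for 13 of 15, with 7 of 15 between 40 and 60% of the order, and fat genes were in the upper 50% for 7 of 8. That upper 50% starts at the median of 3.54, below 3.88, the 90th percentile of genes of other tissues given below. The vessel genes ERG (3.85), ESAM (3.83), FLT4 (3.64) and MYH11 (3.57) lay under 3.88. Of 9 red cell genes, 5 were in the lowest 25% and 2 in the top 10%. The endothelial markers VWF and CDH5 stood at 5.96 and 5.80 and PECAM1 at 4.20. ADIPOQ, the adipocyte hormone adiponectin, measured 6.72, 7.08, 6.71 and 6.67, with pool 2 apart from the rest. PLIN1, which coats fat droplets, stood at 6.13, and its other clusters read 4.6 to 5.7. The fat genes FASN (4.28) and CD36 (4.24) were lower, and PPARG (2.30) was in the lowest 25%. HBAD, an alpha-type globin, measured 7.39, 7.17, 7.01 and 7.42 (7.25 ± 0.19). The red cell anion exchanger SLC4A1 was low at 2.15. Only 3 Schwann cell genes were found. PMP22, a myelin protein also made elsewhere, measured 7.08, 7.06, 6.86 and 7.01, while the transcription factors FOXD3 and SOX10 stood at 4.23 and 2.73.

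**Figure D4:**
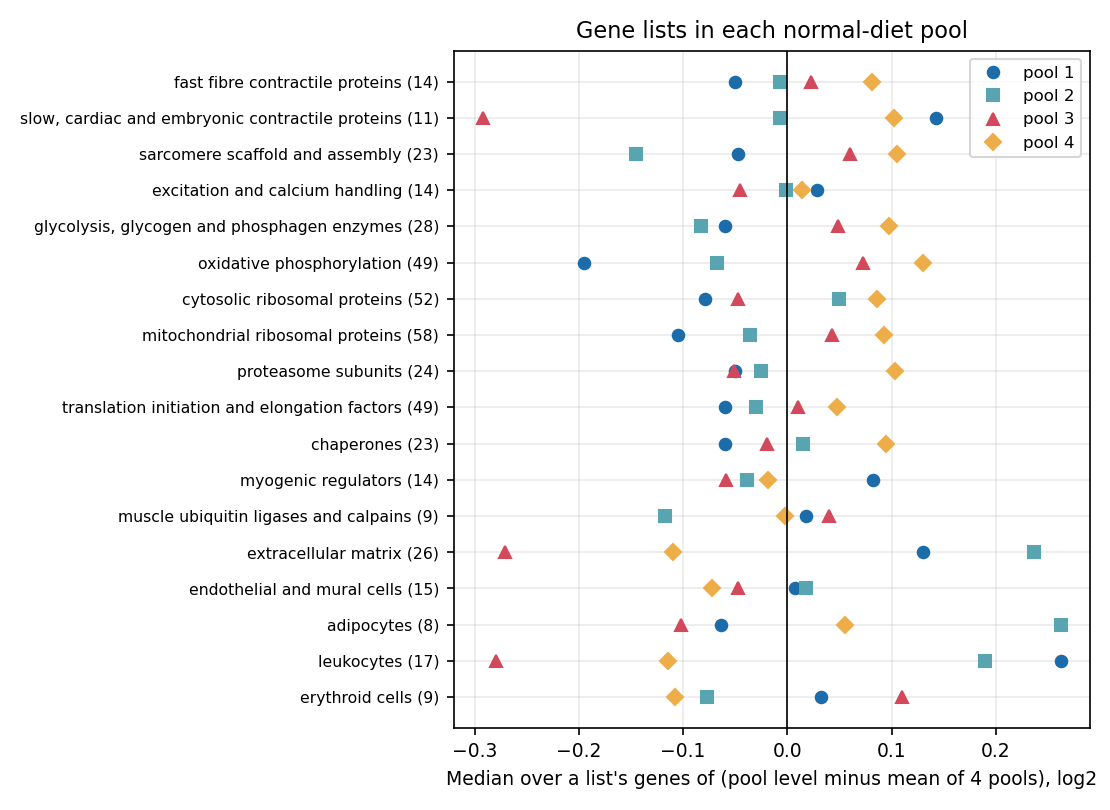
Median over each list's genes of the pool's level minus the gene's 4-pool mean (log2) in each of the 4 pools, where 0 is no departure. Matrix and leukocyte genes lie above 0 in pools 1 and 2 and below it in pools 3 and 4, and oxidative phosphorylation runs from −0.20 in pool 1 to 0.13 in pool 4.

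The lists are not exhaustive, and 37 of the 100 highest genes belonged to none of them. Of these, 10 were among the 40 highest. They included PRR33 (11.97 ± 0.03), which neighbours TNNT3 in the genome annotation, the growth-associated protein TPT1 (10.98 ± 0.10) and the iron store FTH1 (10.46 ± 0.28). The ribosome-bound scaffold RACK1 (10.46 ± 0.07) and the stress gene GADD45A (10.24 ± 0.14) were others. APOA1, an apolipoprotein made in chick breast muscle as well as in liver, was chosen after its values were seen. It ranked 94, with 9.80, 9.18, 9.06 and 8.96 in pools 1 to 4, pool 1 being the highest. At the edge of the 100 highest, RPL10A lay just inside at 9.18 and RPS29 just outside at 9.16. The edge of the top 10%, which held 1152 genes, fell between MRPS18A and STUB1, both at 6.28.

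The floor was marked by genes of tissues that breast muscle does not contain. Of 65 such genes found (neurons, liver, lens and retina, germ line, pancreas and gut, epidermis), 43 were in the lowest 25%, and their median was 2.05. ALB, serum albumin, stood at 1.73 ± 0.11, the synaptic protein SNAP25 at 2.06 and the meiotic protein SYCP1 at 1.54. All 9 neuronal genes were in the lowest 25%, as were 13 of 16 liver and 7 of 11 germ line genes. The count was 5 of 11 for lens and retina, 5 of 10 for pancreas and gut and 4 of 8 for epidermis. Of the 65 genes, 10 were in the upper 50%. The 90th percentile of the 65 was 3.88, and 5014 genes, 43.5% of those ranked, lay above it. Only 2 of the 65 exceeded 5, the intestinal apolipoprotein APOA4 at 6.18 and the epidermal factor TP63 at 5.98. The other cluster of APOA4 read 3.66.

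The middle of the order lay close to that floor. The genes around the middle rank, among them the sideroflexin SFXN5 of mitochondria and the autophagy gene ATG5, stood at 3.54 to 3.55. Clusters of microRNA genes were low: 257 of 392 were in the lowest 25%, 7 were in the top 10%, and 8 of the 10 lowest genes were microRNA genes. Among those named for muscle microRNAs, MIR133B was in the middle at 3.35, and MIR206 (1.88) and MIR1-1 (1.62) were in the lowest 25%. Total RNA was labelled for the arrays, and mature microRNA levels were not measured separately. Most of the 21 HOX genes, which set position along the body, were low (median 2.74). Of the 21, 6 were in the upper 50%, among them HOXA9 at 5.64. HOXA3 alone was in the top 10%, at 7.75, 7.20, 8.34 and 7.82 (7.78 ± 0.47), although its other cluster read 2.91.

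The spread between pools was smallest at the very top and at the floor. The median SD was 0.077 for the 10 highest genes, 0.14 for the 100 highest and 0.18 for all. Because it varies with level, each gene's SD was set against the running median of genes of similar rank. In the upper 50% of the order, 421 of 5764 genes (7.30%) had an SD more than 2 times that median. In the simulated arrays used to check the code, 2.17% of genes whose spread was not widened also passed. A gene can thus pass this limit without a wider spread. In that simulation, unwidened genes of similar rank shared the same SD and varied independently of each other. The 2.17% is therefore no background for the 7.30%. The count was 693 without pool 1 and 656 without pool 4, each an SD over 3 arrays. By the same measure, median ratios were 0.79 for cytosolic ribosomal proteins, 0.64 for the proteasome and 0.62 for myogenic regulators. They were 1.43 for matrix genes, 1.53 for scaffold genes, 1.56 for leukocytes and 1.62 for slow and cardiac genes.

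**Figure D5:**
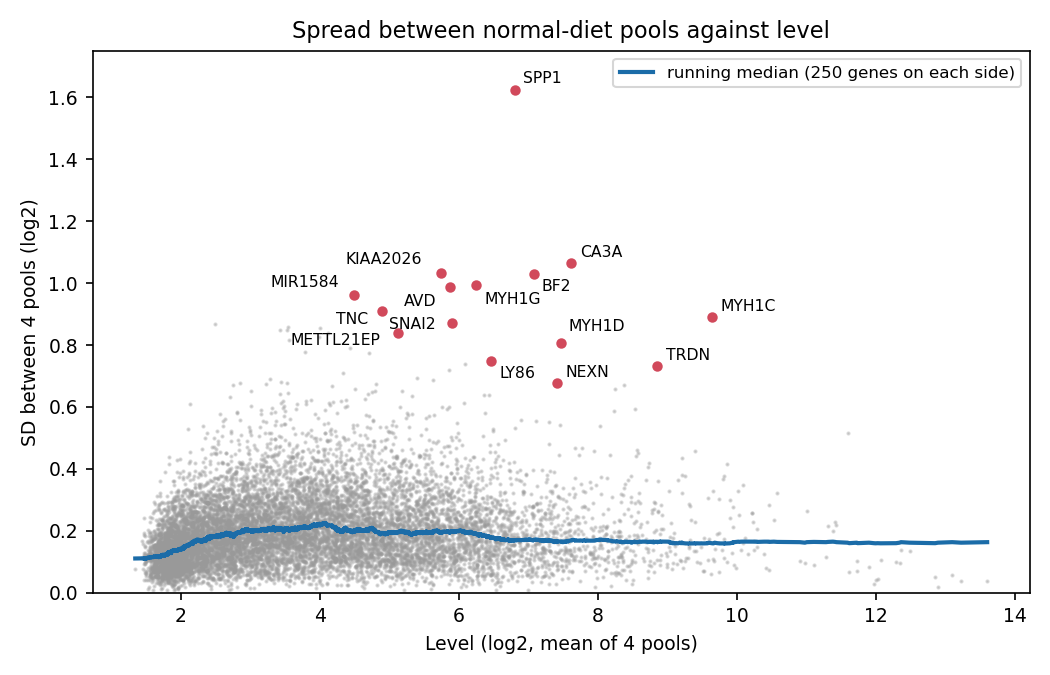
SD over the 4 pools (log2) of each ranked gene against its mean log2 level, with the running median as a line. The 15 genes of the upper 50% that are widest for their rank are named. Among them SPP1 lies farthest out at an SD of 1.62. Of the 5764 genes in the upper 50%, 421 exceed 2 times the running median (561 to 693 when 1 pool is left out).

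Within the upper 50% of the order, the widest gene for its rank was SPP1, at 7.31, 8.49, 4.61 and 6.83 (6.81 ± 1.62). It codes for osteopontin, a secreted phosphoprotein of bone and of macrophages. CA3A, a carbonic anhydrase, measured 7.36, 6.95, 6.97 and 9.19, and BF2, a class I histocompatibility gene, 5.54, 7.61, 7.45 and 7.70. A single pool stood apart in the last 2, pool 4 above the rest for CA3A and pool 1 below the rest for BF2. AVD, avidin, measured 5.71, 7.31, 5.15 and 5.32, with pool 2 high. The matrix protein TNC measured 5.74, 5.57, 3.87 and 4.39. The transcription factor SNAI2 measured 6.30, 6.39, 4.59 and 6.30, and LY86, a protein of myeloid and B cells, 6.87, 7.19, 5.48 and 6.32. Pool 3 was lowest in all 3, and in 11 of the 15 widest genes. Among all 421 wide genes, pool 3 was lowest for 196, against 78, 97 and 50 in pools 1, 2 and 4. Over all ranked genes, which unlike the 421 include the lower 50% of the order, pool 3 was lowest for 27.6%. That share was not counted for the upper 50% alone.

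The order recurred in the 8 arrays of the restricted diets. Spearman's rho between the mean levels in the 4 and in the 8 arrays was 0.995 over the 11528 genes, whose probes and processing are the same in both. Of the 100 highest genes 96 were shared, and of the 40 highest 38. The spread recurred in part. In the 8 arrays, taken within diet, 361 genes of the same 5764 (6.26%) exceeded 2 times the running median. The 132 genes in both sets were 31.4% of the 421, against 6.26% of all 5764. They were 36.6% of the 361, against 7.30% of all 5764. The SD in the normal diet rests on 4 arrays and the other on 8, so sampling weighs more on the first and the counts are not alike. Of the 15 widest genes, 14 exceeded it there too. Of the 10 narrowest among the 100 highest, which include COX3, GAPDH and ACTA1, 9 were under the running median there. At the top of the order that median rests mostly on genes of lower level, whose SD was larger. The count was therefore partly set by level and does not show that these genes are even for their level. Spearman's rho of the SD ratios was 0.28 over the 5764 genes.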

How the data were processed

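Total RNA of 12 muscle pools was hybridised to Affymetrix arrays. The authors deposited 1 table of log2 values, 1 per transcript cluster and array. GCRMA and Affymetrix Expression Console are named per the submitters' processing notes, with versions and roles not given in the sources used here. The log base was taken as 2 from the range of values, 0.85 to 14.35 in the normal-diet arrays. Scanner files were not used here. Gene symbols came from the platform annotation: 12300 clusters had 1, 256 several and 8248 none. Of the 11528 genes, 11032 were found in the RefSeq table of GRCg7b, used only for synonyms and neighbours, and no symbol changed.

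Genes were ranked by the mean over the normal-diet arrays, 1 cluster per gene (the brightest). The SD was divided by the running median SD over 250 genes on each side, or fewer at the ends of the order. In the other 8 arrays the SD was taken within diet. The members and lists were chosen with earlier results of these data known. Named genes are the 40 highest, listed genes, genes at the edges and the middle, the 10 lowest, the 15 widest and the 10 narrowest; others are marked. The ranking code was checked on simulated data. Alternatives were other ways to join clusters or average arrays, quantile normalization, leaving out copied clusters or each pool, and other measures of spread. Promoter and protein sequences were not analysed here. Python 3.11.15, pandas 2.3.3 and numpy 2.4.6 were used.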

Additional observations from a re-analysis of the deposited data

Results flagged for a closer look

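Among 114 genes and 27 lists with values looked at, 8 genes and 1 list had 1 pool far from the other 3, by the gap to its nearest neighbour over the whole range. Chance alone gives such a pool in about 1 of every 20 groups, and 599 of all ranked genes (5.20%) had one. For COX3, the ratio was 1.000, pool 3 reading 12.92 and the others 12.88. For TTN it was 0.864, with pool 2 low at 11.58, and for PFKM 0.895, with pool 1 low at 10.97. For BF2 it was 0.884, with pool 1 low at 5.54 against 7.45 to 7.70. For ADIPOQ it was 0.878, with pool 2 high at 7.08. For SNAI2 it was 0.950, with pool 3 low at 4.59 against 6.30 to 6.39. For MYH7 it was 0.895, with pool 1 high at 4.22. For SNAP25 it was 0.909, with pool 4 low at 1.98. The proteasome list had 0.831, its median departure in pool 4 being 0.10 against −0.05 to −0.03 in the others.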

How the results depend on the processing

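Of the 100 highest genes, 90 remained with the mean of a gene's clusters, 91 with the median cluster, 98 with the median over arrays, 100 with quantile normalization and 97 to 99 when each pool was left out in turn. The level of some genes with several clusters moved: with the mean of clusters ND4L stood at 7.27, COX3 at 9.66, ND6 at 6.46 and TPT1 at 8.25. Genes shared with the 100 highest of the other 8 arrays numbered 96, and 94 to 97 when each pool was left out. The count of genes with an SD over 2 times the running median was 421, and 561 to 693 when each pool was left out. It was 693 without pool 1 and 656 without pool 4, each an SD over fewer arrays. Of the 15 widest genes, 8 remained so without pool 3. No paired analysis was possible because no groups are compared. A comparison of promoters was planned and not run. Of 651 genes with several clusters, 123 had clusters more than 2 apart on the log2 scale, so their level rests on the choice of the brightest. At the low end, values within the range of genes of other tissues have no firm order.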

Other observations

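The ranking of named genes leaves out much of the brightest signal. Of the 100 brightest transcript clusters on the normal-diet arrays, 62 had no symbol in the platform annotation, 7 had several and 31 had 1. In all, 6 clusters were brighter than that of ACTA1, and the highest, which is unnamed here, stood at 14.33 ± 0.02.

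Clusters of 1 gene could differ widely. RPL17 read 9.12 at its brightest and 1.87 at its dimmest cluster, RPL37 8.77 and 1.59, and XIRP1, an actin-binding protein of striated muscle, 8.61 and 2.01. ND4L had 11 clusters, between 3.39 and 13.10.

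Of 96 genes among the 100 highest that could be placed, 6 (6.25%) stood next to another of the 100 in the annotation, against 1.20% of all 10595 placed genes that stood next to 1 of the 100. The pairs were MYH1E with MYH1C, PRR33 with TNNT3, and CHCHD2 with PHKG1. MicroRNA genes inside a ranked protein-coding gene (201) had a median of 1.95, and those that were not (190) had 2.02. For the 18 inside a gene of the top 10% the median was 2.48.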
